A study of Sus scrofa with 15 samples.

Results

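The genes described here carry the names of the cell cycle and DNA replication machinery in the mammary gland of the sow, from late pregnancy to the first day of lactation. They are the Ensembl genes of the count files that the study's own gene table pairs with a symbol beginning in CDK, CDC and a digit, CCN and a letter, MCM, KIF, CENP, BUB, AURK, PLK, E2F, NCAP, POLA, POLD, POLE, RFC, ORC, NEK or TOP, with a level of at least 1 CPM, the count scaled to the library size, in at least 3 of the 15 libraries. This gave 28 genes of the 13503 that passed the same filter, and all 28 genes of that naming pattern passed it. The gene table was at hand only in part, with symbols for 1772 IDs, so that many well-known genes of the cell cycle are not among the 28. They are taken up further on from another name table. Beyond that minimum level the rule uses no measured value.

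The tissue was the mammary gland of 3 second-parity crossbred sows (Danish Landrace × Yorkshire), biopsied at 14, 10, 6 and 2 d prepartum and at 1 d postpartum, with 3 libraries per time point. The sows were those with the highest colostrum yield of a feeding trial, and because their diets differed, an effect of the sow and of the diet cannot be told apart. The test diets began late in gestation, after the day at which the study places the 14 d prepartum biopsy, so that in comparisons with 14 d prepartum the day and the start of the diets cannot be told apart. The labels separate the groups by day alone, and comparisons are named as in "+1vs-14" for 1 d postpartum against 14 d prepartum. The libraries of a time point came from different sows, and the same sows were sampled on each day. Which sow a library came from was read from the sample table of the study.

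Dividing cells copy their DNA in S phase and separate the copies in mitosis. Replication begins when the MCM helicase is loaded on origins and activated with CDC45, and the RFC clamp loader then seats the sliding clamp of the DNA polymerases. Cyclin-dependent kinases drive the passage from phase to phase, CDK4 and CDK2 towards S phase and CDK1 with B-type cyclins into mitosis, and E2F transcription factors switch many of these genes on and off. Kinesin motors and checkpoint proteins then move and guard the chromosomes. In the mammary gland, the epithelium proliferates during pregnancy, while lactation is the work of differentiated secretory cells. Several genes share a prefix with this machinery without being part of it. For this reason the 28 genes were read by role, as 16 genes of replication and division and 12 of topoisomerases, transcription or other functions. This grouping was drawn up with earlier results of these data known.

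Total counts per library ran from 10782343 to 19952918, and the 3 libraries of 1 d postpartum were the shallowest group with 10782343 to 15744454. The 10 highest genes of a library took up 17.7% ± 1.59 (SD, n = 3) of it at 14 d prepartum, against 39.3% ± 12.7 at 1 d postpartum, with 53.8% in replicate 37, whose TMM scaling factor of 0.545 was the lowest of all libraries. Markers of epithelium, fibroblasts, endothelium, immune cells and adipocytes were all detected at every time point. In whole tissue, fewer dividing cells and less of an mRNA per cell cannot be told apart.

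Most of the replication and division genes, 10 of the 16, were downregulated between 2 d prepartum and 1 d postpartum. Before that only MCMBP passed the test in any comparison of the main fit by edgeR, while some other settings also called further genes in -2vs-14. Their summed normalized level lay between 557 and 680 CPM at 14 d prepartum, 632 and 693 at 10 d, 557 and 585 at 6 d, 559 and 576 at 2 d prepartum, and 421 and 431 CPM at 1 d postpartum, so that all 3 postpartum libraries were below all 12 prepartum libraries. Most of the mean postpartum sum of 425 CPM came from BUB3, CDK4, NEK9 and MCMBP, with means of 92.2, 76.4, 82.9 and 56.7 CPM. Of these, NEK9 and MCMBP were not downregulated in +1vs-2. The narrow range of the sum hides the spread of less abundant genes. CDK1, for example, was at 11.1, 1.59 and 4.38 CPM in the 3 postpartum libraries. In +1vs-14, 13 of the 28 genes were downregulated and 1, KIF13B, was upregulated, where 23.7% of all 13503 genes were called, 10.4% downregulated and 13.3% upregulated. In +1vs-2, 10 of the 28 were downregulated, all of them among the 13, beside 7.24% of all genes, and 0 were upregulated by edgeR, beside 8.01%, whereas DESeq2 called CDC42BPB upregulated. An unadjusted p of at most 0.05 was found for 17 of the 28 in +1vs-2, in either direction. The share of all genes at that unadjusted p was not counted, so this count has no background beside it. A gene counts as called here if edgeR's quasi-likelihood test gave a Benjamini-Hochberg adjusted p of at most 0.05, both for time as a whole and for the comparison.

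Before parturition 1 gene was called, MCMBP, which was downregulated in -2vs-14, where 0.896% of all genes were downregulated and 1.96% upregulated. No member was called in -10vs-14, -6vs-14, -6vs-10 or -2vs-6 by edgeR, where the share of all genes called was 0%, 0%, 0% and 0.00741%. An unadjusted p of at most 0.05 was found for 1, 2, 3 and 3 of the 28 in these comparisons, and none passed the adjusted threshold under DESeq2 or any other setting run. Here too the share of all genes at that unadjusted p was not counted, and the counts are not read as a change. The median log2 fold change of the 28 genes was 0.06 for -10vs-14, -0.10 for -6vs-14, -0.10 for -2vs-14 and -0.42 for +1vs-14, where the median of all genes tested was 0.0042, -0.0009, -0.0125 and 0.0181.

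**Figure D1:**
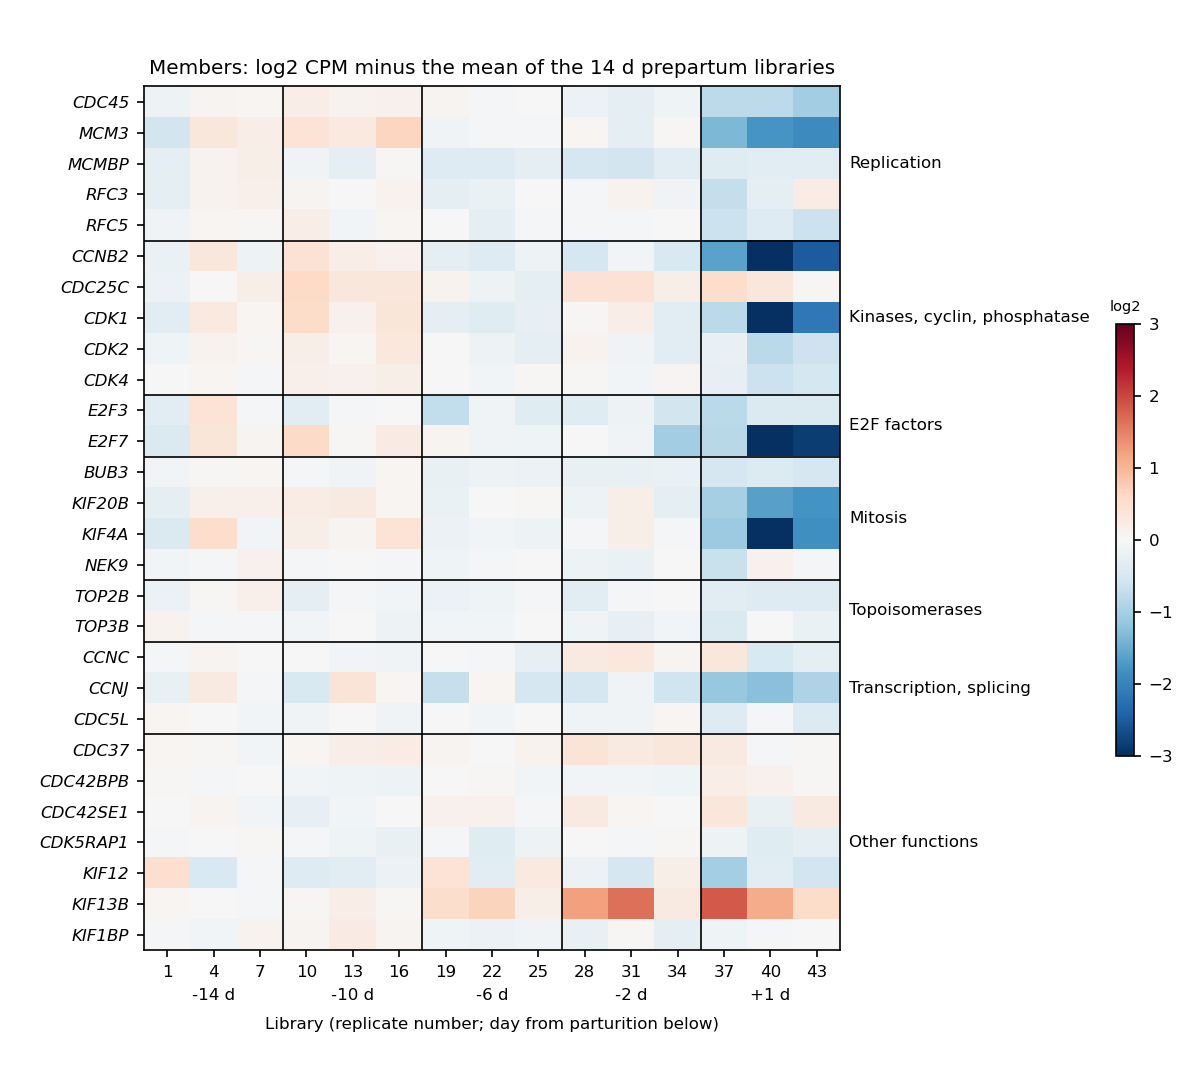
Level of the 28 genes (rows, grouped by role) in each of the 15 libraries (columns, by replicate number and day from parturition), as log2 CPM minus the mean log2 CPM of the 3 libraries of 14 d prepartum, with the colour scale ending at 3 in both directions. The blue cells of 1 d postpartum stand in CCNB2, CDK1, E2F7, KIF4A, KIF20B and MCM3, while KIF13B reddens from 6 d prepartum on.

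Among the replication genes, MCM3 changed most. MCM3 (ENSSSCG00000025488, Sscrofa10.2 chromosome 7, 52534784 to 52554592), a subunit of the replicative helicase, was at 31.4, 58.5 and 53.2 CPM at 14 d prepartum, 61.3, 56.1 and 71.4 at 10 d, 42.6, 44 and 44.5 at 6 d, 48, 37.6 and 47.2 at 2 d prepartum, and 18.2, 13.6 and 12.3 at 1 d postpartum. The 3 postpartum libraries lay below every prepartum library, and no other pair of neighbouring time points separated so widely. MCM3 was downregulated in +1vs-14, with a log2 fold change of -1.72 ± 0.215 (SE, adjusted p = 9.98e-05), and in +1vs-2, with -1.61 ± 0.215 (SE, adjusted p = 0.000369). CDC45 (ENSSSCG00000010122, Sscrofa10.2 chromosome 14, 54750140 to 54775656), which activates that helicase, was at 23.4, 27.7 and 27.3 CPM at 14 d prepartum, 29.8, 28.1 and 28.6 at 10 d, 27.5, 25.4 and 25.9 at 6 d, 23.1, 21.2 and 24 at 2 d prepartum, and 15.1, 15.1 and 12.7 at 1 d postpartum. Its postpartum libraries also lay below all others, with less spread between libraries than in MCM3, and its log2 fold change was -0.87 ± 0.107 (SE, adjusted p = 8.68e-05) in +1vs-14 and stood at -0.68 ± 0.107 (SE, adjusted p = 0.00105) in +1vs-2.

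The clamp loader subunits differed in their calls. RFC5 was at 28.5, 31.7 and 31.6 CPM at 14 d prepartum, 35.2, 29 and 31.7 at 10 d, 30.5, 25.4 and 30.03 at 6 d, 29.8, 29.9 and 31 at 2 d prepartum, and 19.6, 23.5 and 19.6 at 1 d postpartum, again with no overlap between postpartum and prepartum libraries, and was downregulated by a smaller amount, with a log2 fold change of -0.55 ± 0.114 (SE, adjusted p = 0.00256) against 14 d prepartum and of -0.53 ± 0.114 (SE, adjusted p = 0.00597) against 2 d prepartum. Both calls were lost without replicate 43. RFC3, a subunit of the same complex, was at 13.6, 17.4 and 18.3 CPM at 14 d prepartum, 17.3, 16.4 and 17.6 at 10 d, 13.6, 14.2 and 16.1 at 6 d, 15.7, 17.4 and 15.3 at 2 d prepartum, and 9.86, 13.6 and 18.9 at 1 d postpartum. Its postpartum libraries spanned the prepartum range from below to above, and its log2 fold change in +1vs-14 was -0.20 ± 0.187 (SE, adjusted p = 0.445), which did not pass. The difference between RFC3 and RFC5 was itself not tested.

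MCMBP, an MCM-binding protein that takes the helicase off chromatin, followed another course. It was at 58.6, 76.6 and 79.97 CPM at 14 d prepartum, 65.9, 58.8 and 72.5 at 10 d, 54.2, 54.5 and 58 at 6 d, 50.3, 48.4 and 56.3 at 2 d prepartum, and 55.6, 57.2 and 57.3 at 1 d postpartum. The libraries of 2 d prepartum lay below all those of 14 d prepartum, and the postpartum libraries did not go lower. MCMBP was downregulated in -2vs-14, with a log2 fold change of -0.47 ± 0.118 (SE, adjusted p = 0.0496), and in +1vs-14, with -0.34 ± 0.119 (SE, adjusted p = 0.0426), while +1vs-2 gave 0.13 ± 0.119 (SE, adjusted p = 0.485). These calls were near the threshold, and the call in -2vs-14 was kept in 3 of the 15 fits that left out a library and that in +1vs-14 in 4 of 15.

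The cyclin of mitotic entry had the deepest drop of the 28 genes, and its kinase CDK1 was among the 6 genes that changed at least 2-fold in +1vs-2. CCNB2 (ENSSSCG00000004588, Sscrofa10.2 chromosome 1, 124907274 to 124942332), a B-type cyclin, was at 6.87, 9.93 and 7.03 CPM at 14 d prepartum, 10.6, 8.93 and 8.51 at 10 d, 6.44, 6.01 and 7.04 at 6 d, 5.43, 7.44 and 5.68 at 2 d prepartum, and 2.55, 0.297 and 1.39 at 1 d postpartum. The postpartum libraries were all below the prepartum ones but far apart from each other, and replicate 40 held only 3 counts of this gene, the lowest count of any member in any library. The log2 fold change of CCNB2 was -2.61 ± 0.400 (SE, adjusted p = 0.000364) in +1vs-14, the largest of the 28, and -2.25 ± 0.404 (SE, adjusted p = 0.00213) in +1vs-2. CDK1 (ENSSSCG00000010214, Sscrofa10.2 chromosome 14, 69262319 to 69277262), its kinase partner, was at 15.3, 23.8 and 20.3 CPM at 14 d prepartum, 28.5, 21.2 and 25.1 at 10 d, 16.1, 15.2 and 16.5 at 6 d, 20.1, 22.3 and 15.5 at 2 d prepartum, and 11.1, 1.59 and 4.38 at 1 d postpartum, in the same order of the postpartum libraries as CCNB2. It was downregulated with a log2 fold change of -1.91 ± 0.422 (SE, adjusted p = 0.00394) against 14 d prepartum and of -1.87 ± 0.424 (SE, adjusted p = 0.00846) against 2 d prepartum, and without replicate 43 neither call was kept.

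The kinases of G1 and S phase changed less. CDK4, the partner of D-type cyclins, was at 104, 110.0 and 102 CPM at 14 d prepartum, 116, 114 and 118 at 10 d, 104, 99.5 and 108 at 6 d, 107, 99.5 and 111 at 2 d prepartum, and 88.1, 67.7 and 73.4 at 1 d postpartum, with all postpartum libraries below all prepartum ones. Its log2 fold change was -0.46 ± 0.0971 (SE, adjusted p = 0.00281) in +1vs-14 and stood at -0.47 ± 0.0972 (SE, adjusted p = 0.00467) in +1vs-2. CDK2, the partner of cyclins E and A, was at 10.7, 12.6 and 12.1 CPM at 14 d prepartum, 13.4, 12.3 and 14.7 at 10 d, 11.8, 10.6 and 9.75 at 6 d, 12.7, 10.9 and 9.51 at 2 d prepartum, and 10.03, 6.74 and 7.60 at 1 d postpartum, and here replicate 37 overlapped with 6 d and 2 d prepartum. CDK2 was downregulated in +1vs-14, with -0.55 ± 0.163 (SE, adjusted p = 0.0190), while the log2 fold change in +1vs-2, -0.46 ± 0.164 (SE, adjusted p = 0.0699), did not pass. The call of CDK2 was lost without replicate 4, 7, 10, 16, 40 or 43. The difference in size between CDK1 and CDK4 was not tested.

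The gene that the study's table names CDC25C, a phosphatase that activates CDK1, did not move with CDK1. It was at 3.02, 3.48 and 3.88 CPM at 14 d prepartum, 5.22, 4.36 and 4.35 at 10 d, 3.68, 3.09 and 2.85 at 6 d, 4.62, 4.66 and 3.91 at 2 d prepartum, and 4.93, 4.36 and 3.51 at 1 d postpartum, with the libraries of 10 d above those of 14 and 6 d prepartum and the postpartum libraries inside the prepartum range, and its log2 fold change in +1vs-14 was 0.29 ± 0.188 (SE, adjusted p = 0.267). Its identity is uncertain, since the reference name table gives its ID (ENSSSCG00000014329, Sscrofa10.2 chromosome 2, 145988074 to 146023662) the name GFRA3, a receptor of the GDNF family. Of the other 27 members, 23 carry the same name in that table, 3 have no entry and KIF1BP appears as KIFBP.

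The E2F members differed in kind. E2F7 (ENSSSCG00000000950, Sscrofa10.2 chromosome 5, 109254252 to 109290485), an atypical E2F that represses transcription, was at 5.40, 9.34 and 7.76 CPM at 14 d prepartum, 10.9, 7.55 and 8.61 at 10 d, 7.74, 6.81 and 6.64 at 6 d, 7.23, 6.77 and 3.54 at 2 d prepartum, and 4.08, 0.793 and 1.02 at 1 d postpartum. Replicate 37 overlapped with replicate 34 of 2 d prepartum, and the other postpartum libraries were far below. E2F7 was downregulated with a log2 fold change of -2.12 ± 0.465 (SE, adjusted p = 0.00371) against 14 d prepartum and of -1.77 ± 0.470 (SE, adjusted p = 0.0199) against 2 d prepartum, and both calls were lost without replicate 40 or without replicate 43, that in +1vs-2 also without replicate 28 or 31 of 2 d prepartum. E2F3, an activator of S phase genes, was at 24.8, 41.8 and 30.2 CPM at 14 d prepartum, 24.9, 30.1 and 31.6 at 10 d, 18.9, 29.2 and 24.6 at 6 d, 24.6, 28.5 and 21.6 at 2 d prepartum, and 17.9, 23.3 and 23.5 at 1 d postpartum, with overlap between all neighbouring time points. Its log2 fold change of -0.57 ± 0.207 (SE, adjusted p = 0.0469) in +1vs-14 was not called because the overall test of time did not pass, and it was called when edgeR took the sow as a block (adjusted p = 0.00757).

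Of the mitosis genes, the kinesins were the most changed. KIF4A (ENSSSCG00000012377, Sscrofa10.2 chromosome X, 63514296 to 63642357), a chromosome-bound kinesin of the spindle midzone, was at 10.9, 21.3 and 14 CPM at 14 d prepartum, 16.8, 15.6 and 19.7 at 10 d, 13.1, 13.9 and 13.2 at 6 d, 14.2, 16.8 and 14.5 at 2 d prepartum, and 6.97, 1.09 and 4.16 at 1 d postpartum. Its postpartum libraries were below all others and ranked as in CDK1 and CCNB2, with replicate 40 the lowest. The log2 fold change was -1.99 ± 0.402 (SE, adjusted p = 0.00222) in +1vs-14 and stood at -1.97 ± 0.404 (SE, adjusted p = 0.00463) in +1vs-2. KIF20B (ENSSSCG00000010457, Sscrofa10.2 chromosome 14, 110499118 to 110581337), a kinesin of cytokinesis, was at 13.3, 18 and 18.1 CPM at 14 d prepartum, 18.9, 19.8 and 17 at 10 d, 14.2, 16.1 and 16.8 at 6 d, 14.7, 18.4 and 13.6 at 2 d prepartum, and 8.16, 5.25 and 4.67 at 1 d postpartum, and the postpartum libraries were closer together than in KIF4A. It was downregulated with a log2 fold change of -1.49 ± 0.202 (SE, adjusted p = 0.000167) against 14 d prepartum and of -1.41 ± 0.203 (SE, adjusted p = 0.000582) against 2 d prepartum, and, like MCM3, it was called in +1vs-2 under all 13 other settings and in all 15 fits that left out a library.

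BUB3, a protein of the spindle checkpoint, stood at a higher level and changed by a small and even amount. It was at 121, 129.6 and 132 CPM at 14 d prepartum, 125, 118 and 133 at 10 d, 108, 114 and 114 at 6 d, 109.6, 109 and 111 at 2 d prepartum, and 90.3, 96.1 and 90.1 at 1 d postpartum, and the postpartum libraries did not overlap with any other. BUB3 was downregulated with a log2 fold change of -0.47 ± 0.0778 (SE, adjusted p = 0.000619) against 14 d prepartum and of -0.25 ± 0.0778 (SE, adjusted p = 0.0382) against 2 d prepartum, the latter lost without replicate 19, 28, 31, 34 or 43. In -2vs-14 the log2 fold change of BUB3 was -0.22 ± 0.0773 (SE, adjusted p = 0.135). It was not called by edgeR there, but was called with DESeq2 and without TMM scaling. NEK9, a kinase of spindle assembly, was at 87.4, 88.5 and 101 CPM at 14 d prepartum, 90.5, 92 and 90.3 at 10 d, 84, 89.8 and 90.9 at 6 d, 83, 80.01 and 92.5 at 2 d prepartum, and 58.2, 101 and 89.99 at 1 d postpartum. Replicate 37 of NEK9 was lower than any prepartum library and the other postpartum libraries were among the prepartum values, and its log2 fold change of -0.15 ± 0.152 (SE, adjusted p = 0.485) in +1vs-14 did not pass.

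**Figure D2:**
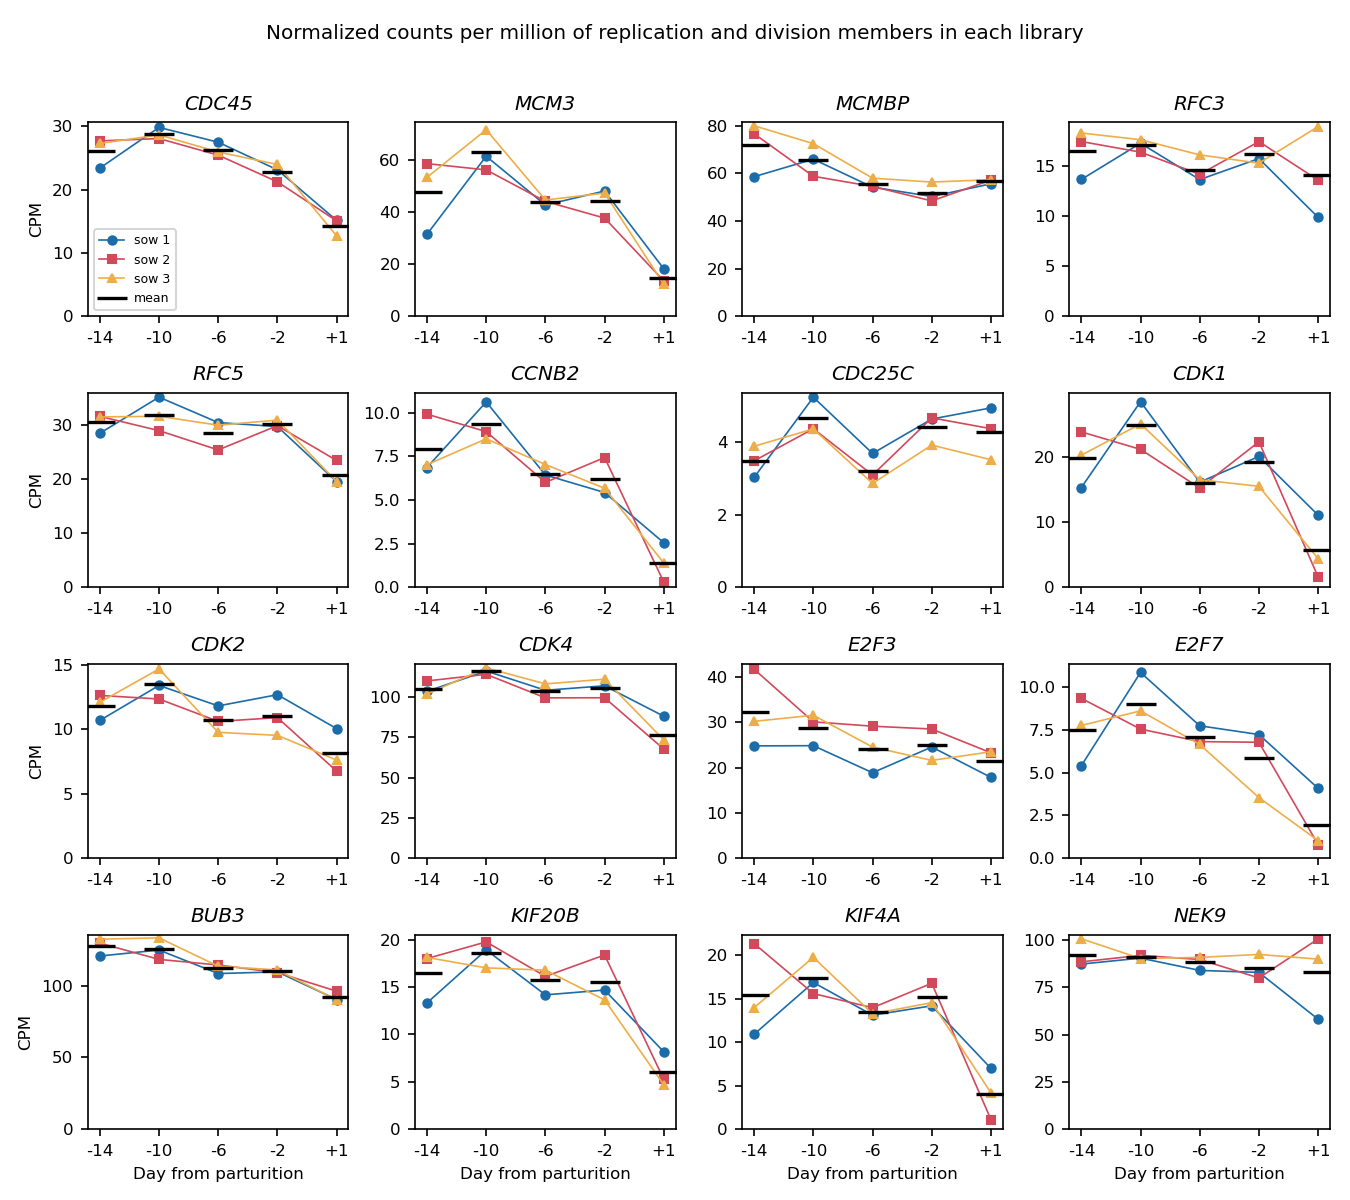
Normalized CPM (vertical axis, starting at 0) of the 16 replication and division genes against the day from parturition, with a point for each library, a line for each sow and a black dash for the mean of the 3 libraries. The drop of CCNB2, CDK1, E2F7, KIF4A, KIF20B and MCM3 lies in the step from 2 d prepartum to 1 d postpartum, while MCMBP is lowest at 2 d prepartum.

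Levels between genes can be compared per length, as CPM per kb of exon. At 14 d prepartum the largest mean level among the replication and division genes was that of BUB3 with 47 ± 2.26 (SD, n = 3) CPM per kb, followed by CDK4 with 24.1 ± 0.986 (SD, n = 3), MCMBP with 18.4 ± 2.95 (SD, n = 3) and CDK1 with 15.6 ± 3.39 (SD, n = 3). The lowest were CDC25C with 1.62 ± 0.200 (SD, n = 3) and E2F7 with 1.33 ± 0.351 (SD, n = 3) CPM per kb. At 1 d postpartum CDK1 was at 4.49 ± 3.85 (SD, n = 3) CPM per kb and CDK4 at 17.5 ± 2.41 (SD, n = 3). At 14 d prepartum the ranges of mean ± SD of BUB3 and CDK4 did not overlap, whereas those of MCMBP and CDK1 did. Both genes of a pair come from the same 3 libraries, so the SD between libraries does not decide which was higher. These differences were not tested. In fold terms 7 of the 13 genes downregulated in +1vs-14 changed at least 2-fold and 6 changed less, and 6 of the 10 downregulated in +1vs-2 changed at least 2-fold.

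**Figure D3:**
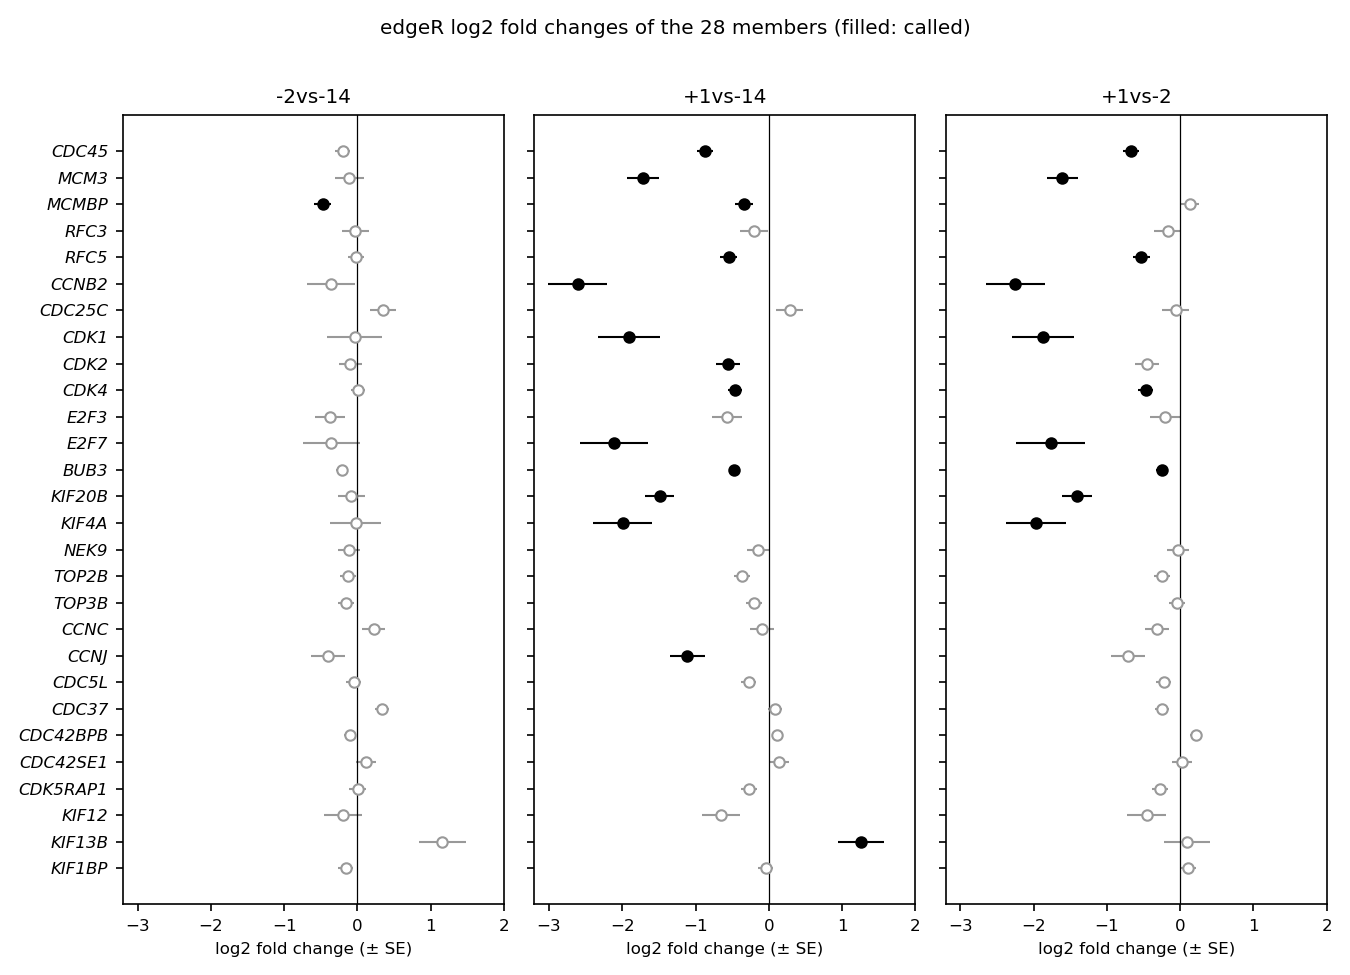
Log2 fold change of the 28 genes (horizontal axis) with its standard error for -2vs-14, +1vs-14 and +1vs-2, from edgeR with time as the only factor, with filled points for called genes. The filled points of +1vs-14 run from -2.61 in CCNB2 to -0.34 in MCMBP, with KIF13B alone on the other side at 1.26.

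Of the 16 replication and division genes, 12 were downregulated in +1vs-14, beside 10.4% of all genes. Of the 12 other members, CCNJ was downregulated and KIF13B upregulated in that comparison, and 10 were not called. With 10.4% of all genes downregulated and 13.3% upregulated, these counts are near the background for so few genes. The topoisomerases in this set are TOP2B, the form of topoisomerase II that is not tied to proliferation, and TOP3B. TOP2B had a log2 fold change of -0.37 ± 0.111 (SE, adjusted p = 0.0215) in +1vs-14 without passing the overall test of time, and TOP3B one of -0.20 ± 0.109 (SE, adjusted p = 0.170). CCNJ, a cyclin-like protein, was at 48.9, 68.9 and 54.9 CPM at 14 d prepartum, 41.6, 74.8 and 59.6 at 10 d, 35.3, 58.9 and 40.5 at 6 d, 40.01, 53.1 and 37.9 at 2 d prepartum, and 26, 24 and 29.8 at 1 d postpartum. Its postpartum libraries were below all prepartum libraries, though the prepartum libraries themselves ranged widely, and its log2 fold change was -1.11 ± 0.237 (SE, adjusted p = 0.00309) in +1vs-14 and stood at -0.71 ± 0.236 (SE, adjusted p = 0.0520) in +1vs-2, of which the first was called, though not without replicate 40, and the second was called with the sow as a block (adjusted p = 0.0106). CCNC, the cyclin of the Mediator kinase, and CDC5L, a splicing factor, had log2 fold changes in +1vs-14 of -0.092 and -0.27 and were not called.

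The 7 genes that share a prefix but have other known functions were centred on a log2 fold change of 0.09 (+1vs-14) or 0.03 (+1vs-2), taking the median. Of the 7, 0 were downregulated by edgeR, beside 10.4% and 7.24% of all genes in these comparisons, which for so few genes is near the background. They are the HSP90 co-chaperone CDC37, the CDC42 effectors CDC42BPB and CDC42SE1, CDK5RAP1, the kinesin-binding protein KIF1BP, and the kinesins KIF12 and KIF13B. Their log2 fold changes in +1vs-14 ran from -0.65 in KIF12 to 1.26 in KIF13B. KIF13B (ENSSSCG00000009683, Sscrofa10.2 chromosome 14, 14139334 to 14342690), a kinesin of membrane and vesicle transport, was at 70.1, 68.1 and 64.3 CPM at 14 d prepartum, 69, 77.4 and 68.9 at 10 d, 97, 108 and 75.7 at 6 d, 158, 213 and 81.9 at 2 d prepartum, and 242, 145 and 99.2 at 1 d postpartum. The level was even at 14 and 10 d prepartum, and from 6 d on the libraries of a time point differed by more, with the sow of replicates 7, 16, 25, 34 and 43 the lowest from 6 d prepartum on. KIF13B was upregulated in +1vs-14, with a log2 fold change of 1.26 ± 0.321 (SE, adjusted p = 0.00890), while -2vs-14 gave 1.16 ± 0.319 (SE, adjusted p = 0.0687). With the sow as a block the latter was called as well (adjusted p = 0.0216).

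Within pregnancy most of the replication and division genes had a shallow common course, and only MCMBP, in -2vs-14, reached the threshold by edgeR. The mean level was highest at 10 d prepartum in 12 of the 16 and at 14 d in the other 4, while 15.9% and 20.2% of all genes tested had their highest mean there. From 10 d to 6 d prepartum, 15 of the 16 were lower in all 3 sows, with NEK9 as the exception, while this held for 22.8% of all genes. The differences were small, with log2 fold changes from -0.64 in CDK1 to -0.043 in NEK9 and a median of -0.25 in -6vs-10. The test diets may have begun within this interval, so the day and the diets cannot be told apart here. From 14 d to 10 d prepartum only 3 of the 16 were higher in all 3 sows, beside 15.2% of all genes, and the libraries of 14 d prepartum were themselves far apart, as in MCM3, CDK1 and KIF4A, where replicate 1 was the lowest and replicate 4 the highest. From 6 d to 2 d prepartum the median log2 fold change was 0.02. From 2 d prepartum to 1 d postpartum 11 of the 16 were lower in all 3 sows, beside 22.2% of all genes, and in 9 of the 16 all postpartum libraries lay below all 12 prepartum libraries, beside 8.9% of all genes, while 0 of the 16 had them above all prepartum libraries, beside 7.91%. These counts describe genes that move together in the same 15 libraries and carry no test.

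**Figure D4:**
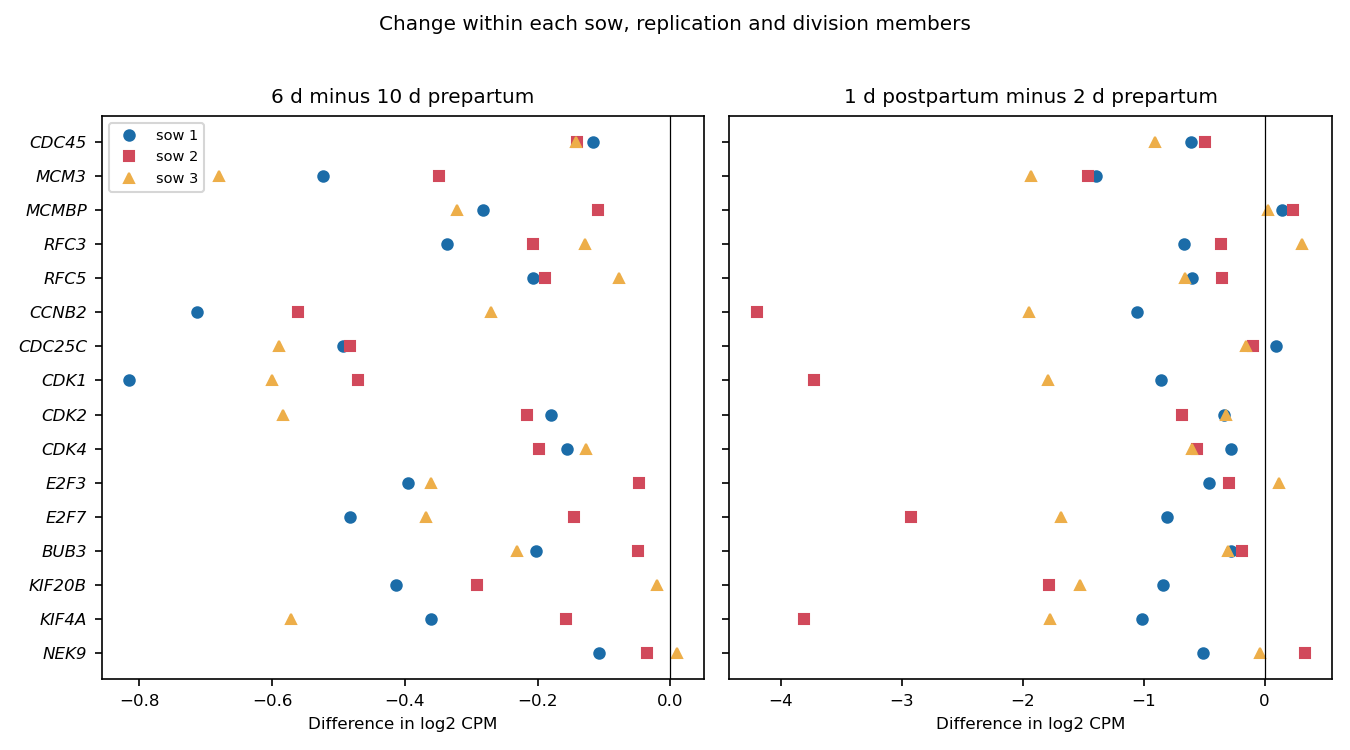
Difference in log2 CPM between 2 libraries of the same sow, for the 16 replication and division genes, from 10 d to 6 d prepartum on the left and from 2 d prepartum to 1 d postpartum on the right, on axes of different range. On the left nearly all points lie below 0 and above -0.9, and on the right the points of CCNB2, CDK1 and KIF4A reach beyond -3 in sow 2 while sow 1 stays near -1.

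The 3 sows differed in how low the postpartum level was. In sow 2, from replicate 31 at 2 d prepartum to replicate 40 at 1 d postpartum, the log2 difference was -4.20 for CCNB2, -3.81 for KIF4A and -3.72 for CDK1. In sow 1, from replicate 28 to replicate 37, it was -1.06, -1.01 and -0.85, and in sow 3, from replicate 34 to replicate 43, -1.95, -1.78 and -1.79. Replicate 37, the library with the largest share of counts on its 10 highest genes, was the highest of the 3 postpartum libraries in 10 of the 16 genes and in all 5 of the cyclin and kinase group, where 40.3% of all genes were highest in it. MCM3 and CDC45 ranged more narrowly over the sows, from -1.93 to -1.39 and from -0.91 to -0.49. With a single library per sow and day, a difference between sows has no replicate.

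Other genes of the pathway, from lists drawn up with earlier results of these data known, were called in the same comparisons. Of 12 other genes of S phase and repair, 10 were downregulated in +1vs-14 (median -1.42), beside 10.4% of all genes, and 10 in +1vs-2 (median -1.18), beside 7.24%. Among the largest log2 fold changes (± SE) in +1vs-14 were those of NEIL3, a DNA glycosylase, with -2.62 ± 0.410, TCF19, a factor of late G1 and S phase, with -2.11 ± 0.301, DSCC1, a subunit of an alternative clamp loader, with -1.64 ± 0.397, and RAD54L, a DNA repair translocase, with -1.55 ± 0.223. BRCA1 and TIPIN were not called, with -0.67 and -0.56. Of 18 other genes of mitosis, 12 were downregulated in each of these comparisons (median -1.19 and -1.01), beside the same shares of all genes. They were led by the mitotic kinase PBK with -2.55 ± 0.460, the centromere histone chaperone HJURP with -2.40 ± 0.452, separase (ESPL1) with -2.23 ± 0.293, the ubiquitin-conjugating enzyme UBE2C with -2.19 ± 0.376 and CDCA3 with -1.58 ± 0.372. The 6 mitosis genes not called were CDCA2 with -1.34, CKS1B with -0.20, HAUS1 with -0.16, HAUS6 with 0.43, PMF1 with 0.072 and WDR62 with -0.042. None of these 30 genes was called in a comparison before parturition by edgeR.

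Of 8 genes that brake proliferation, 2 were upregulated in +1vs-14, BTG2 with a log2 fold change of 1.65 ± 0.272 and GADD45G with 1.30 ± 0.372, beside 13.3% of all genes, and 1, BTG2, in +1vs-2, beside 8.01%. RB1, the retinoblastoma protein, had a log2 fold change of 0.00040 against 14 d prepartum and was not called.

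The same naming pattern was also applied to the reference name table, a step chosen after the data were seen, which added 155 tested genes that are not among the 28. Of these, 54 were downregulated and 6 upregulated in +1vs-14 (median -0.25), beside 10.4% and 13.3% of all genes, and 46 were downregulated and 3 upregulated in +1vs-2 (median -0.26), beside 7.24% and 8.01%, with 0 called in the comparisons within pregnancy by edgeR. Examples, picked after their values were seen, with their log2 fold change ± SE in +1vs-14, are TOP2A, the proliferation-linked topoisomerase II, with -2.38 ± 0.381, CCNB1, the other main B-type cyclin, with -2.37 ± 0.389, BUB1B, a kinase-like protein of the spindle checkpoint, with -2.49 ± 0.351, and KIF20A with -2.49 ± 0.299. TOP2A was at 61, 112 and 86.5 CPM at 14 d prepartum, 100.2, 97.6 and 100.2 at 10 d, 64.3, 76.5 and 72.8 at 6 d, 58.9, 91.9 and 68.2 at 2 d prepartum, and 29.9, 6.74 and 14.8 at 1 d postpartum, with no overlap between postpartum and prepartum libraries. CCNB1 was at 26.9, 44 and 28.3 CPM at 14 d prepartum, 38.7, 29.8 and 35 at 10 d, 22.8, 21.7 and 21.5 at 6 d, 24.8, 28.2 and 25.3 at 2 d prepartum, and 12.4, 2.18 and 5.77 at 1 d postpartum, and its postpartum libraries ranked like those of CCNB2 and CDK1. The 6 upregulated genes were CDK2AP2, CDC42EP4, CCNYL1, CCNL1, CDKN2AIP and CDK5RAP3. In 64 of the 155 genes the mean level was highest at 10 d prepartum, beside 15.9% of all genes.

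**Figure D5:**
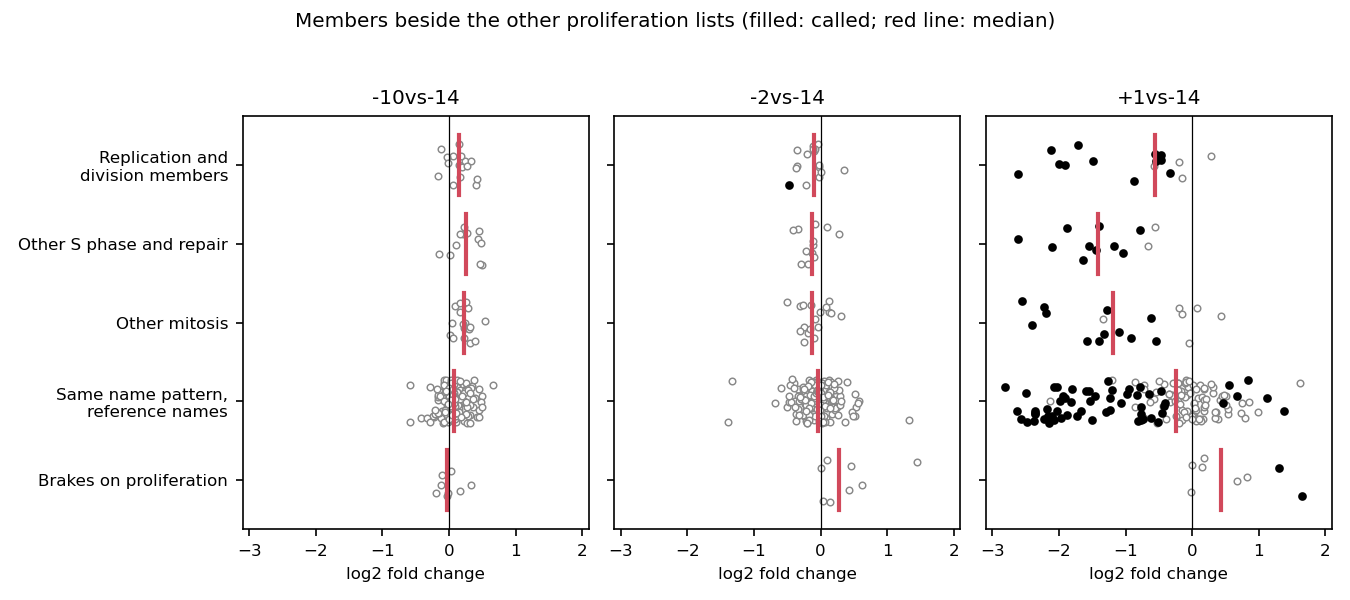
Log2 fold change (horizontal axis) of each gene of the 16 replication and division genes, the 12 other S phase and repair genes, the 18 other mitosis genes, the 155 genes of the same naming pattern in the reference table and the 8 brakes on proliferation, for -10vs-14, -2vs-14 and +1vs-14, with filled points for called genes and a red line at the median. In this order of the lists, the medians are 0.16, 0.25, 0.23, 0.07 and -0.03 in -10vs-14. They are -0.10, -0.12, -0.12, -0.04 and 0.28 in -2vs-14, and -0.56, -1.42, -1.19, -0.25 and 0.43 in +1vs-14.

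The levels of cell type markers are given beside these genes, and their part in the result was not tested. The summed level of 6 epithelial markers ran from 1156 to 1277 CPM at 14 d prepartum, from 817 to 907 at 2 d prepartum and from 733 to 1351 at 1 d postpartum. That of 8 fibroblast markers ran from 3695 to 6873 CPM at 14 d prepartum, from 3392 to 3825 at 2 d prepartum and from 1887 to 3669 at 1 d postpartum, and that of 12 immune markers from 372 to 422, from 387 to 420 and from 321 to 383 CPM. Most of the fibroblast sum was COL3A1, and the markers of a list did not all move together. A log2 fold change below 0 in +1vs-14 was found for 5 of the 8 fibroblast and 3 of the 6 epithelial markers. The 8 endothelial markers were at 234 to 274 CPM at 14 d prepartum and 216 to 263 at 1 d postpartum, and the 3 adipocyte markers at 2.22 to 4.03 and 20.1 to 126 CPM. Most of the postpartum adipocyte sum was CIDEA, at 0.962, 0.461 and 0.145 CPM at 14 d prepartum and 122, 14.1 and 31.1 at 1 d postpartum. The other adipocyte markers were at low levels at 1 d postpartum, CIDEC at 3.40, 5.75 and 3.14 CPM and HCAR1 at 0.850, 0.297 and 1.61 CPM. HCAR1 had been lower still at 14 d prepartum, with 0.137, 0.168 and 0.194 CPM. No marker was at 0 at any time point. In +1vs-14, 2 of 6 epithelial, 1 of 8 fibroblast, 3 of 12 immune, 1 of 8 endothelial and 0 of 3 adipocyte markers were downregulated, and 1, 1, 0, 2 and 2 of them upregulated, beside 10.4% and 13.3% of all genes.

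The count of 13 downregulated genes in +1vs-14 became 14 with the sow as a block, 8 without replicate 43 of 1 d postpartum and 0 with the RNA integrity number as a covariate, which left 0.304% of all genes downregulated. In +1vs-2 the count of 10 became 11, 6 and 5 in these fits, with 3.65% of all genes downregulated beside the last. RNA integrity rose with the day, so that in +1vs-14 it cannot be told apart from time. Without TMM scaling the median of all genes in +1vs-14 shifted to -0.64, with 38.2% of all genes downregulated and 3.94% upregulated, and 23 of the 28 were called lower.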

How the data were processed

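Messenger RNA libraries (stranded kit, single reads) were counted per gene by the authors, who deposited 1 table of raw counts per library, made with STAR 2.5.1b and featureCounts of Subread 1.5.0 on exons, with reverse-stranded counting, on the pig build Sscrofa10.2. The file headers name the Ensembl 86 annotation, whereas the methods of the study name RefSeq. Time points were taken from the labels. The counts were filtered (at least 1 CPM in at least 3 libraries, 13503 of 25322 genes), scaled by TMM and fitted in R 4.3.3 with the quasi-likelihood test of edgeR 4.0.16, all 15 libraries in 1 model with time as the factor. p-values were adjusted by Benjamini-Hochberg over all genes tested, and a standard error is the absolute log2 fold change divided by the square root of F. log2 CPM used a prior count of 2.

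The study's own model has the animal as a random effect, but the sow is not in the labels. It was joined through the study's sample table by the exact count of reads on exons, and entered alternatives and descriptions within a sow only. Deviations from the time point means correlated by 0.396 on average between libraries of the same sow (30 pairs, lowest 0.103), and by -0.198 between other sows. The deviations of a time point cancel out over the sows, so the second value largely follows from the first. Any pair of libraries of a time point differed in the count of 16072 genes or more.

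The alternatives were DESeq2 1.42.0, limma-voom (limma 3.58.1) with and without the sow, the sow as a block, RLE or no scaling factors, other filters, thresholds and sets of libraries, the RNA integrity number as a covariate, a fit without the 10 highest genes per library, and fits that left out a single library. The scripts were tested on simulated data. The members and lists were chosen with earlier results of these data known. The text describes all 28 members, with values in every library for those of replication and division and any other member called, and the 5 largest changes among called genes of each other pathway list. An SD covers the 3 libraries of a time point. Standard errors and p-values of the main fit rest on a spread pooled over all time points and moderated across genes. That fit treats libraries of the same sow as independent. Values of some genes of the lists are not reported here. Sequences and promoter motifs were not analysed here.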

Additional observations from a re-analysis of the deposited data

How the results depend on the processing

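A minimum of 1 CPM in all 15 libraries left out CCNB2, E2F7 and KIF4A, which were under it in replicate 40 of 1 d postpartum. Under the 13 other settings, 963 of 1083 fold changes of members kept their direction and side of the threshold, 51 lost and 33 gained a call, and 34 changed sign with no call in either fit, 13 of them without TMM and 13 with the RNA integrity covariate. Another 2 turned into a call of the other sign, CDC37 (-0.59) and CDC42BPB (-0.55) in +1vs-14 without TMM, where the median of all genes shifts to -0.64. The causes were not tested. The RNA integrity covariate moved the counts of downregulated genes in +1vs-14 to 0 of the 28 members, 0 of the 16 replication and division genes, 0 of the other S phase genes, 0 of the other mitosis genes and 0 of the 155 reference-named genes, and the upregulated counts to 0 members and 0 brakes. In +1vs-2 it left 5 members, 5 replication and division genes, 6 other mitosis genes and 30 reference-named genes. The 6 libraries of a comparison alone, with fewer samples, gave 8 members and 7 replication and division genes in +1vs-14, and in +1vs-2 2 members, 2 replication and division genes, 3 other S phase genes, 2 other mitosis genes, 11 reference-named genes and 0 brakes. An adjusted p of 0.01 gave 7 members, 7 replication and division genes and 7 other mitosis genes in +1vs-14, with 0 members and 1 brake upregulated, and 6 of each of these 3 sets in +1vs-2. Without TMM, 23 members and 98 reference-named genes were downregulated in +1vs-14 and 0 members and 1 brake upregulated, with 0 brakes in +1vs-2. Upregulated brakes in +1vs-2 numbered 2 with DESeq2, 2 with limma-voom and the sow and 2 with the sow as a block, and DESeq2 called 1 member upregulated there. In -2vs-14 the single downregulated member became 2 with DESeq2, 4 without TMM, and 0 without the filter, with the 6 libraries alone, at 0.01 and with the RNA integrity covariate. Upregulated members in -2vs-14 numbered 2 with DESeq2, 2 with limma-voom and the sow and 1 with the sow as a block. The block kept all 14 calls of members in +1vs-14, all 10 in +1vs-2 and the 1 in -2vs-14, and added E2F3, CCNJ and KIF13B, 1 in each.

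Leaving out each library in turn gave ranges of 8 to 13 downregulated members in +1vs-14 and 6 to 13 in +1vs-2, 7 to 12 and 6 to 11 replication and division genes, 9 to 11 other S phase genes in each, 7 to 13 and 6 to 13 other mitosis genes, 41 to 61 and 34 to 56 reference-named genes, and 1 to 3 upregulated brakes in +1vs-14. In -2vs-14 it gave 0 to 1 downregulated and 0 to 2 upregulated members. The lowest counts of members came without replicate 43 of 1 d postpartum, and 13 in +1vs-2 without replicate 37.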
